A study of Mus musculus with 17 samples.

Results

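The 9 genes described here handle bile acids in the ileum, the distal stretch of the small intestine, and carry the signal of their receptor FXR. They were chosen by name for uptake (Slc10a2), binding in the cell (Fabp6), export (Slc51a, Slc51b, Abcc2 and Abcc3) and FXR signalling (Nr1h4, Nr0b2 and Fgf15), not by any measured value. All 9 of 9 were found among the 33840 gene symbols of the intestinal tables and among the 24594 gene identifiers of the tables labelled liver. All 9 also passed the filter on low counts in both kinds of table.

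RNA from wild-type mice was sequenced in bulk in 17 libraries of 7 groups. In the small intestine, crypts and IEC (a fraction that the labels name only by these letters) were taken after hepatectomy and after a sham operation, with 2 libraries in each of the 4 groups. The other 9 libraries are labelled liver with DSS treatment, 3 each at day 0, day 10 and day 20. The labels give neither the extent of liver removed, the time after surgery, the stretch of small intestine sampled, nor whether replicates came from separate animals. The p-values therefore cover the spread among the libraries sequenced, which may be technical.

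Conjugated bile acids enter ileal enterocytes through Slc10a2 at the brush border, are carried by Fabp6, and leave for portal blood through the Slc51a and Slc51b heterodimer. Inside the cell they activate FXR, the nuclear receptor encoded by Nr1h4, which switches on Fabp6, the Slc51 pair, Nr0b2 (the repressor SHP) and Fgf15. Fgf15 is a hormone that travels to the liver and there restrains bile acid synthesis, and Abcc2 and Abcc3 are pumps that export conjugates, glucuronides among them, across the apical and the basolateral membrane.

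Levels are given as counts per 1000000 counts of a library (CPM) after scaling by TMM (trimmed mean of M values), a method that sets most genes level between libraries. Totals were 26609686 to 43580020 counts in the intestinal libraries and 12742629 to 42669857 in those labelled liver. In the crypt and IEC libraries the scaling bears on small changes: with total counts in place of TMM (total-count scaling), the median gene stood at -0.31 (log2) in hepatectomy crypts against sham crypts and at -0.19 in hepatectomy IEC against sham IEC, beside 0.0073 and 0.024 with TMM. Changes were tested with edgeR's quasi-likelihood test, adjusted over all genes tested (18207 intestinal, 16694 labelled liver) by the Benjamini-Hochberg method, and called at an adjusted p under 0.05. Running numbers in the headers of the count columns place the sham and the hepatectomy libraries in separate series, so surgery and series cannot be told apart.

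The libraries labelled liver did not all hold liver. The summed level of 10 hepatocyte markers was 1055 to 3111 CPM of all counts at day 0, 2080 to 5380 at day 10 and 78002 to 80756 at day 20. The 8 crypt base and Paneth cell markers, of which Lyz1 and Olfm4 were the most abundant at day 0, summed to 23236 to 26031 CPM at day 0, 11526 to 30599 at day 10 and 119 to 157 at day 20. The day 0 and day 10 libraries thus go against their tissue label, and they are called here the libraries labelled liver. Replicate 3 of day 10 also stood apart: its depth of 12742629 counts was the lowest of all 17, and its enterocyte markers summed to 6677 CPM, against 1604 and 1856 CPM in the other replicates of that day.

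Promoters are shown for Fabp6, a direct FXR target, and for Abcc2, which rose after hepatectomy in both fractions. RefSeq windows (GRCm38.p6, the mm10 assembly) were found for 7 of the 9 genes, and the 250 bases upstream of the annotated start are printed for these 2, both 5′ to 3′ on the gene's own strand. Fgf15 and Abcc3 are named only. In the Fabp6 sequence, capitals mark matches to the FXR element, the repeats AGGTCA and TGACCT with 1 base between them and at most 2 mismatches over 12 bases. In the Abcc2 sequence, capitals mark an exact match to the site of LRH-1 (AAGGTCA), a nuclear receptor that acts on bile acid genes. Both motifs were searched on both strands.
Fabp6, chr11:43601563-43601812, minus strand: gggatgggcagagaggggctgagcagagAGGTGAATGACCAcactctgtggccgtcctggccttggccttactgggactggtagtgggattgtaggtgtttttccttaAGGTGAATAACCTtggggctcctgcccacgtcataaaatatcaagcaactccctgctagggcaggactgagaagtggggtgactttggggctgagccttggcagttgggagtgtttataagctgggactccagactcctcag
Abcc2, chr19:43782058-43782307, plus strand: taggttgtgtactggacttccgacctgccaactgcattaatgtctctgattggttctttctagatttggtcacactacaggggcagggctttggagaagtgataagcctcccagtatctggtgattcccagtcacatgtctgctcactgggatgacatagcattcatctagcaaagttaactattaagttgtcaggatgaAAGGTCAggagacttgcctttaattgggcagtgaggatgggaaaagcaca

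The Fabp6 window held 2 FXR matches, each with 2 mismatches, at -222 to -210 and at -142 to -130 from the start site. An FXR match was found in 1.14% of all 32851 promoter windows of 300 bases, and in none of the windows of the other 6 genes. Abcc2 alone of the 7 held the LRH-1 site, at -50 to -44, a match present in 4.72% of all windows. Neither match was found in the windows of Slc10a2, Slc51a, Slc51b, Nr1h4 and Nr0b2. The Nr1h4 window (chromosome 10, 89506609 to 89506908) lies inside the gene's span of 89454234 to 89533585. It does not cover the upstream end of that span on the minus strand. These letters describe a window and show no binding.

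In crypts after hepatectomy, the importer Slc10a2 and the binding protein Fabp6 were lower and the apical pump Abcc2 was higher than after sham, each by a margin well beyond the replicate spread. Of the 9 genes, 7 passed the test, 5 higher and 2 lower, against a background of 37.5% of all genes tested. The median log2 fold change of the 9 was 0.26, beside 0.0073 over all genes. In IEC the same comparison also called 7 of 9 genes, 4 higher and 3 lower, against 37.8% of all genes, with a median of 0.14 beside 0.024. Over all genes, 3493 rose and 3329 fell in crypts and 3543 rose and 3334 fell in IEC, but with total-count scaling the splits were 1564 and 8245 in crypts and 2083 and 6027 in IEC. On that scale 5 of the 9 genes passed in crypts (2 higher, 3 lower) and 5 in IEC (2 higher, 3 lower).

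**Figure D1:**
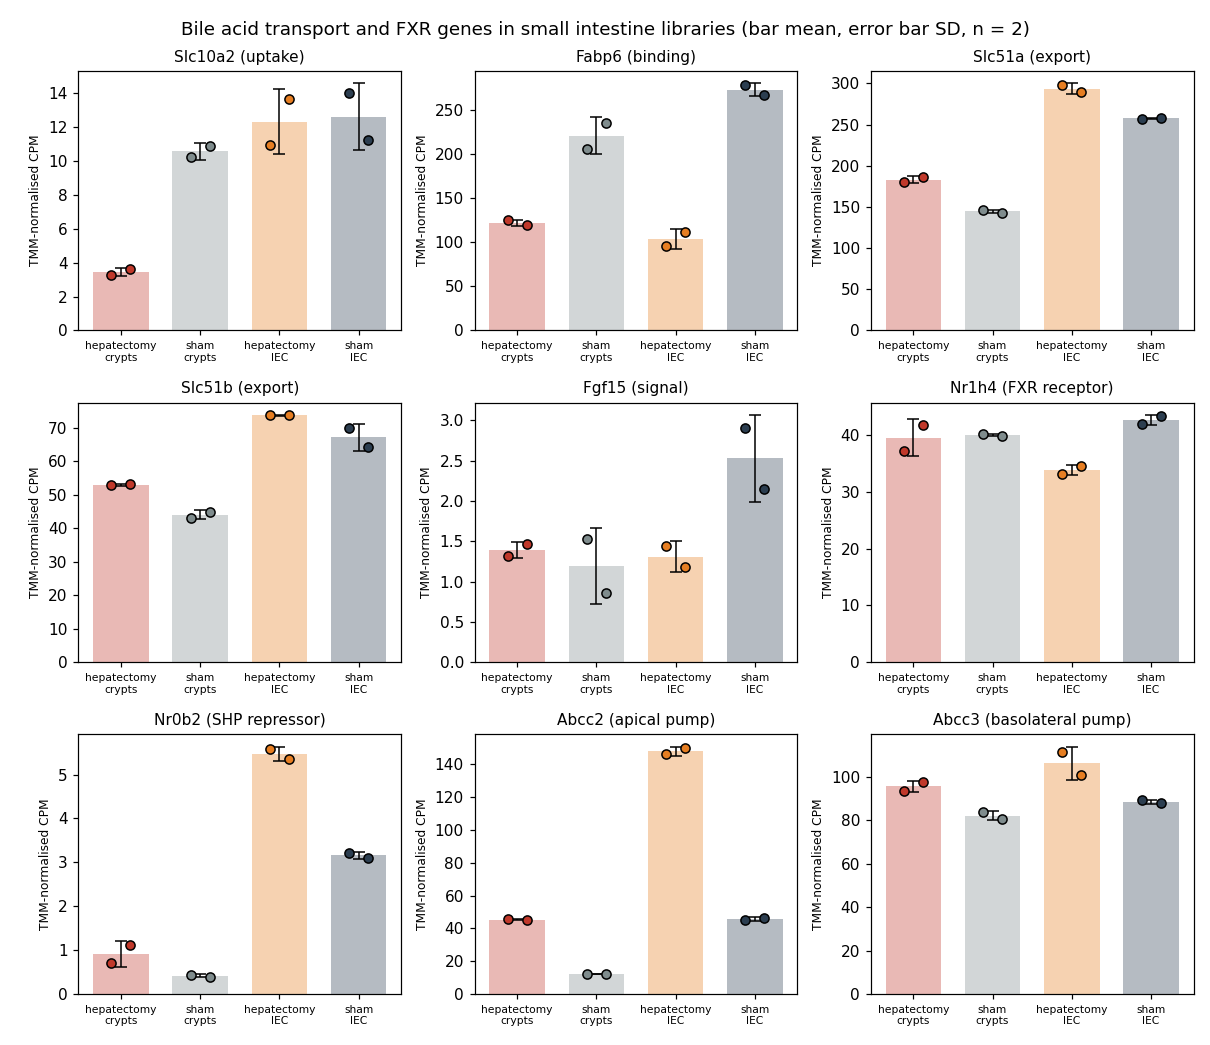
TMM-normalised CPM of each gene in hepatectomy crypts, sham crypts, hepatectomy IEC and sham IEC; points are libraries, bars the mean and error bars the SD (n = 2 per group), on linear axes from 0. Slc10a2 is low only in the hepatectomy crypts among these 4 groups (3.26 and 3.61 CPM), whereas Fabp6 is lower and Abcc2 higher after hepatectomy in both fractions.

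Uptake differed between the fractions. Slc10a2 (chromosome 8, 5083219 to 5105351, minus strand), the apical sodium-dependent bile acid transporter, stood at 3.26 and 3.61 CPM in hepatectomy crypts, against 10.2 and 10.9 CPM in sham crypts. The groups did not overlap, and the gene fell by 1.62 ± 0.15 on the log2 scale (± SE; adjusted p = 5.0e-06), to 0.326 of the sham level. Hepatectomy IEC held 10.97 and 13.7 CPM and sham IEC 14.03 and 11.2 CPM. Those IEC values overlapped, and their difference of -0.04 ± 0.13 (log2) did not pass the test (adjusted p = 0.85), with a normal interval of -0.30 to 0.22. The difference between the fractions itself passed: the hepatectomy effect was lower in crypts than in IEC, with a difference of -1.58 ± 0.20 (log2; adjusted p = 0.00021). Over 14 alternative settings it ranged from -1.75 to -1.41 and stayed past the threshold in each, with -1.68 with total-count scaling.

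Fabp6 (chromosome 11, 43596049 to 43601540, minus strand), the ileal bile acid binding protein, was lower after hepatectomy in both fractions. Hepatectomy crypts held 125 and 119.8 CPM, against 206 and 236 CPM in sham crypts. In IEC the values were 95.7 and 111 CPM after hepatectomy, against 278 and 267 CPM after sham. Neither pair of groups overlapped. The log2 fold change was -0.85 ± 0.075 in crypts (adjusted p = 3.7e-06) and -1.40 ± 0.077 in IEC (adjusted p = 3.8e-08), so that hepatectomy IEC stood at 0.38 of the sham level. The fall was smaller in crypts than in IEC, by 0.54 ± 0.11 (log2; adjusted p = 0.0039).

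The ratio of binding to uptake moved in opposite ways in the 2 fractions. Per Slc10a2 count there were 38.2 and 33.2 Fabp6 counts in hepatectomy crypts, against 20.1 and 21.6 in sham crypts. In IEC there were 8.72 and 8.14 after hepatectomy, against 19.8 and 23.8 after sham. The 4 sham libraries thus lay within 19.8 to 23.8 in both fractions, and the 4 hepatectomy libraries lay outside that span, above it in crypts and below it in IEC. These are ratios of raw counts within a library and do not depend on scaling; they were not tested.

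Export through the basolateral heterodimer changed little. Slc51a (chromosome 16, 32474504 to 32487879, minus strand) stood at 180.4 and 186 CPM in hepatectomy crypts, against 146 and 143 CPM in sham crypts, and rose by 0.34 ± 0.044 on the log2 scale (adjusted p = 8.5e-05). Its IEC values were 298 and 289 CPM after hepatectomy and 257 and 258 CPM after sham (0.19 ± 0.044, adjusted p = 0.0043). Slc51b (chromosome 9, 65412714 to 65422955, minus strand) stood at 52.9 and 53.2 CPM in hepatectomy crypts, against 43.1 and 44.9 CPM in sham crypts (0.27 ± 0.058, adjusted p = 0.0034). With total-count scaling these rises were lost: Slc51a differed by 0.018 in crypts and -0.024 in IEC, and Slc51b by -0.054 in crypts and -0.08 in IEC (adjusted p = 0.38 to 0.83). The IEC call on Slc51a was also lost without the filter on low counts (adjusted p = 0.073) and without replicate 1 of the sham IEC (0.051). With TMM, Slc51b in IEC was 73.8 and 73.7 CPM after hepatectomy and 70.04 and 64.3 CPM after sham, a difference that did not pass (0.14 ± 0.058, adjusted p = 0.087), though it passed with a stricter filter (0.20, adjusted p = 0.011).

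The 2 subunits kept close to each other in the intestine. There were 3.18 to 4.04 Slc51a counts per Slc51b count over all 8 libraries, which is 0.705 to 0.896 per unit of exon length. Pearson's r between the genes over these 8 libraries was 0.991 on log2 CPM, a description only, as the libraries share 4 groups. Some exons of Slc51a overlap Pcyt1a and some of Slc51b overlap Rasl12, both on the other strand. The strand used in counting is not stated, so both counts are uncertain. Rasl12 held 26 to 77 counts per intestinal library, beside 1466 to 2283 for Slc51b. Pcyt1a held 1911 to 3780 counts per intestinal library, beside 4972 to 9086 for Slc51a. In the libraries labelled liver at day 20, Pcyt1a held 1776 to 1985 counts, beside 8 to 14 for Slc51a.

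The apical pump rose in both fractions. Abcc2 (chromosome 19, 43782192 to 43840740, plus strand), the apical conjugate pump MRP2, stood at 45.4 CPM in both hepatectomy crypt libraries, against 12.1 and 11.96 CPM in sham crypts. Hepatectomy IEC held 146 and 149.9 CPM, against 45.1 and 46.4 CPM in sham IEC. The rise was 1.91 ± 0.058 on the log2 scale in crypts (3.77-fold, adjusted p = 4.5e-10) and 1.69 ± 0.052 in IEC (3.23-fold, adjusted p = 2.8e-10). Over 15 alternative settings it ranged from 1.59 to 1.94 in crypts and from 1.48 to 1.76 in IEC, lowest in both with total-count scaling. Hepatectomy crypts reached the level of sham IEC (45.4 ± 0.068 against 45.7 ± 0.95 CPM, SD, n = 2 each), a comparison that was not tested.

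Abcc3 (chromosome 11, 94343295 to 94392997, minus strand), the basolateral pump MRP3, stood at 93.8 and 97.6 CPM in hepatectomy crypts, against 83.7 and 80.8 CPM in sham crypts (0.22 ± 0.057, adjusted p = 0.010). In IEC it was 112 and 101 CPM after hepatectomy, against 89.2 and 88.0 CPM after sham (0.26 ± 0.058, adjusted p = 0.0035). Both differences were of the size of those in Slc51a and Slc51b and did not outlast a change of scaling or the loss of single libraries. With total-count scaling they were -0.11 in crypts and 0.048 in IEC (adjusted p = 0.247 and 0.635). Leaving out replicate 2 of the hepatectomy crypts (adjusted p = 0.076) or of the sham crypts (0.085) ended the crypt call. Leaving out replicate 1 of the hepatectomy IEC ended the IEC call (0.057).

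The receptor itself, Nr1h4 (chromosome 10, 89454234 to 89533585, minus strand), was lower in IEC. It stood at 33.2 and 34.5 CPM in hepatectomy IEC, against 42.0 and 43.3 CPM in sham IEC (-0.33 ± 0.069, adjusted p = 0.0022). In crypts the values overlapped, at 37.2 and 41.9 CPM after hepatectomy and 40.2 and 39.9 CPM after sham (-0.015 ± 0.066, adjusted p = 0.88). With total-count scaling the crypt difference was -0.34 and passed the test (adjusted p = 0.0014). The difference between the fractions was 0.32 ± 0.096 (adjusted p = 0.037), and it was lost with DESeq2 (adjusted p = 0.056), with total-count scaling (0.21) and in 7 of the 8 fits that left out 1 library.

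Nr0b2 (chromosome 4, 133553376 to 133556536, plus strand), the repressor SHP and a classical FXR target in liver, was scarce in crypts. Hepatectomy crypts held 24 and 48 counts (0.705 and 1.12 CPM), against 15 and 18 counts (0.441 and 0.396 CPM) in sham crypts. It rose by 1.15 ± 0.30 on the log2 scale (adjusted p = 0.010), and 0.83 with total-count scaling, but leaving out replicate 2 of the hepatectomy crypts (adjusted p = 0.13) or of the sham crypts (0.069) ended the call. In IEC it stood at 5.58 and 5.36 CPM after hepatectomy, against 3.21 and 3.11 CPM after sham (0.79 ± 0.19, adjusted p = 0.0061), and this call held in all 14 alternatives that gave a value. The hepatectomy libraries also carried more counts over genes silent in gut: the 987 olfactory receptor genes averaged 0.151 and 0.156 CPM of all counts in hepatectomy crypts, against 0.0687 and 0.0625 in sham crypts, and the part of this in the crypt values of Nr0b2 was not tested.

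Fgf15 (chromosome 7, 144896531 to 144900953, plus strand), the hormone output of ileal FXR, had only 33 to 78 counts in each of the 8 intestinal libraries. Hepatectomy IEC held 1.45 and 1.18 CPM, against 2.91 and 2.15 CPM in sham IEC. The groups did not overlap, and the gene fell by 0.94 ± 0.30 on the log2 scale (adjusted p = 0.026). This call was lost with DESeq2 (adjusted p = 0.061), without replicate 1 of the sham IEC (0.18) and without replicate 1 (0.054) or 2 (0.13) of the hepatectomy IEC. In crypts it stood at 1.32 and 1.47 CPM after hepatectomy and 1.53 and 0.857 CPM after sham, an overlap with no call (0.26 ± 0.30, adjusted p = 0.53). The antisense gene Gm26793, which shares exon sequence with Fgf15, held 0 to 9 counts in these libraries.

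**Figure D2:**
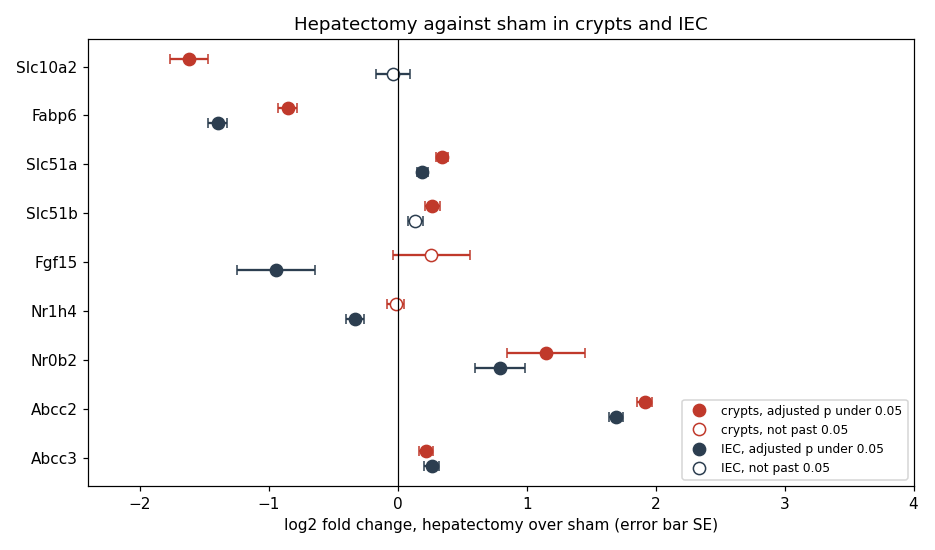
Log2 fold change of each gene, hepatectomy over sham, in crypts and in IEC, with SE bars (2 libraries per group); filled points passed an adjusted p of 0.05. Slc10a2 lies at -1.62 in crypts and -0.04 in IEC, Fabp6 at -0.85 and -1.40, and Abcc2 at 1.91 and 1.69. The small rises of Slc51a, Slc51b and Abcc3 were lost or changed sign with total-count scaling.

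Markers of enterocytes rose after hepatectomy, whereas the 9 genes moved both ways. The 16 enterocyte markers all rose after hepatectomy in both fractions (12 in crypts and 15 in IEC with total-count scaling, the others not passing), and summed to 13765 to 13991 CPM of all counts in hepatectomy crypts, against 7558 to 8125 in sham crypts, and to 52562 to 55446 in hepatectomy IEC, against 26228 to 26580 in sham IEC. In bulk RNA, fewer cells of a type and less RNA per cell cannot be told apart. Per 1000 enterocyte marker counts, Slc51a stood at 12.9 and 13.3 in hepatectomy crypts, against 23.0 and 22.8 in sham crypts, and at 4.54 and 4.55 in hepatectomy IEC, against 9.40 and 9.51 in sham IEC. Fabp6 stood at 8.89 and 8.57 in hepatectomy crypts, against 32.4 and 37.5 in sham crypts. Slc10a2 stood at 0.233 and 0.258 in hepatectomy crypts, against 1.61 and 1.74 in sham crypts, and at 0.167 and 0.215 in hepatectomy IEC, against 0.513 and 0.414 in sham IEC, where its CPM had overlapped. Nr0b2, which rose in IEC by CPM, stood at 0.0849 and 0.0843 per 1000 in hepatectomy IEC, against 0.117 and 0.115 in sham IEC, and Abcc3 at 1.70 and 1.59 in hepatectomy IEC, against 3.26 and 3.24 in sham IEC. Of the 9 genes, 8 were thus lower after hepatectomy in IEC on this footing, and 7 in crypts, where the 2 groups overlapped for Nr0b2. The enterocyte sum itself rose in both fractions, so a gene whose CPM stayed level is lower on this footing. The share of all genes lower on it is not given here, so these counts have no background beside them. The ratios were not tested. Abcc2 alone was higher after hepatectomy in both fractions, at 3.24 and 3.25 in crypts, against 1.91 in both sham crypt libraries, and at 2.22 and 2.36 in IEC, against 1.65 and 1.71 in sham IEC.

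Crypt base and Paneth cell markers were lower after hepatectomy, 7 of 8 in crypts and 5 of 8 in IEC, where 1 rose, and they summed to 1298 to 1307 CPM in hepatectomy crypts, against 3053 to 3135 in sham crypts. Of 6 proliferation markers, 5 fell in crypts and 6 in IEC. Of 7 immune cell markers tested, 6 fell in crypts (median -1.58), and 4 fell and 2 rose in IEC. They summed to 20.8 to 24.8 CPM of all counts in hepatectomy crypts, against 101 to 113 in sham crypts, and to 90.5 to 92.9 in hepatectomy IEC, against 310 to 318 in sham IEC. Most of the IEC sums was the antibody gene Igha, with TMM at 75.6 CPM in hepatectomy IEC and 284 in sham IEC. Ptprc stood at 8.63 CPM in hepatectomy IEC and 10.9 in sham IEC, and Lyz2 rose there, from 3.86 to 6.02 CPM. Of 5 fibroblast and muscle markers tested, 3 rose and 1 fell in crypts, and 2 rose and 1 fell in IEC. Dcn, a matrix proteoglycan of fibroblasts, rose 13.3-fold in crypts, although the whole list summed to only 6.69 to 7.39 CPM in hepatectomy crypts, against 2.17 to 2.22 in sham crypts. The part of these lists in the values of the 9 genes was not tested.

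Markers of the stretch of intestine also moved. Of 16 proximal markers, 13 rose and 2 fell in crypts (median 1.06) and 16 rose in IEC (median 1.20). They summed to 2262 to 2267 CPM of all counts in hepatectomy crypts, against 1344 to 1461 in sham crypts, and to 19310 to 20929 in hepatectomy IEC, against 8374 to 8617 in sham IEC. Of 10 distal markers without the bile acid genes, 3 rose and 5 fell in crypts (median -0.23) and 7 rose and 2 fell in IEC (median 0.43). Their sums were 718 to 732 CPM in hepatectomy crypts, against 815 to 879 in sham crypts, and 1827 to 1920 in hepatectomy IEC, against 1446 to 1495 in sham IEC. The distal sum was thus higher in IEC and lower in crypts after hepatectomy, while Fabp6 was lower in both. The enterocyte sum in IEC was higher as well, at 52562 to 55446 CPM after hepatectomy and 26228 to 26580 after sham. The part of any of these lists in the bile acid genes was not tested.

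Among receptors and factors that act with FXR, the split of rises and falls depended on the scaling. Of 17 tested, 10 rose in crypts and the other 7 did not pass (median 0.23), and 6 rose and 2 fell in IEC (median 0.21), beside 37.5% and 37.8% of all genes called. With total-count scaling 3 rose and 5 fell in crypts (median -0.095, beside -0.31 over all genes), and 4 rose and 6 fell in IEC (median -0.0049, beside -0.19). Nr1i3, the xenobiotic receptor CAR, stood at 39.6 ± 2.9 CPM in hepatectomy crypts and 18.0 ± 1.2 CPM in sham crypts (1.14 ± 0.073, adjusted p = 2.6e-07), and at 105 ± 4.9 CPM in hepatectomy IEC and 34.8 ± 0.39 CPM in sham IEC (1.60 ± 0.071, adjusted p = 5.3e-09; SD, n = 2 each). Maf rose in crypts by 1.07 ± 0.082 and Gata6 by 0.96 ± 0.11, whereas Hnf4g rose in IEC by 0.62 ± 0.065 and Nr1i2, the xenobiotic receptor PXR, by 0.46 ± 0.056 (log2 ± SE, adjusted p = 4.0e-05 or below for all 4).

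Targets of PXR, CAR and NRF2, receptors and a stress factor that also control Abcc2 in rodents, mostly rose. Of 12 such genes, Abcc2 not among them, 7 rose in crypts (median 0.51) and 11 rose in IEC (median 0.77), and the others did not pass; over all genes 19.2% rose in crypts and 19.5% in IEC. With total-count scaling 6 rose and 2 fell in crypts (median 0.19), and 8 rose and none fell in IEC (median 0.55). Cyp2b10, a CAR target, stood at 55.9 ± 1.4 CPM in hepatectomy crypts and 13.9 ± 1.4 CPM in sham crypts, and at 619 ± 40 CPM in hepatectomy IEC and 154 ± 2.1 CPM in sham IEC. Gsta1, a glutathione transferase that is also counted among the proximal markers above, rose by 1.73 ± 0.048 in crypts. Cyp3a11, a drug-metabolising oxygenase, rose by 2.37 ± 0.057 in IEC. Of 9 other efflux pumps tested, 4 rose and 2 fell in crypts and 6 rose and 1 fell in IEC; with total-count scaling 3 rose and 3 fell in crypts, and 5 rose and 2 fell in IEC. Abcb1a, the multidrug pump, rose in both, by 1.07 ± 0.054 in crypts and 2.21 ± 0.055 in IEC. All 16 enterocyte markers rose in the same comparisons, with medians of 1.16 in crypts and 1.14 in IEC. The part of these receptors, of their targets or of enterocyte RNA in the rise of Abcc2 was not tested.

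Between the fractions, Nr0b2, Abcc2 and both Slc51 genes were lower in crypts than in IEC, after sham and after hepatectomy. The label of the fractions was borne out in part: all 16 enterocyte markers were lower and all 6 proliferation markers higher in sham crypts than in sham IEC, whereas of the 8 crypt markers 2 were higher and 4 lower. The crypt markers summed to 3053 to 3135 CPM of all counts in sham crypts, against 2813 to 2881 in sham IEC. In sham libraries, crypts against IEC, 6 of the 9 genes were lower and the other 3 did not pass, against a background of 38.6% of all genes called. The largest of the 9 differences was that of Nr0b2, at 0.418 ± 0.032 CPM in sham crypts and 3.16 ± 0.072 CPM in sham IEC (-2.91 ± 0.26, adjusted p = 2.7e-06). Abcc2 followed, at 12.05 ± 0.13 CPM in sham crypts and 45.7 ± 0.95 CPM in sham IEC (-1.93 ± 0.059), then Fgf15 (-1.12 ± 0.29), Slc51a (-0.83 ± 0.044), Slc51b (-0.61 ± 0.058) and Fabp6 (-0.30 ± 0.074). The Fabp6 call ended when replicate 1 was left out of the crypts (adjusted p = 0.059) or the IEC (0.051), and the Fgf15 call without crypt replicate 2 (0.107) or IEC replicate 1 (0.094). The call on Fabp6 did not hold with total-count scaling (0.05, adjusted p = 0.58), where Nr1h4 (0.26) and Abcc3 (0.25) were higher in crypts; over all genes the split was 3523 higher and 3512 lower with TMM and 8597 and 1742 on that scale.

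After hepatectomy, crypts against IEC, 8 of the 9 genes passed, 2 higher and 6 lower, against 51.9% of all genes. Slc10a2 joined the lower genes, at 3.44 ± 0.25 CPM in hepatectomy crypts and 12.3 ± 1.9 CPM in hepatectomy IEC (-1.83 ± 0.15, adjusted p = 5.4e-07). Fabp6 was higher in crypts, at 122 ± 3.4 CPM in hepatectomy crypts and 104 ± 11 CPM in hepatectomy IEC (0.24 ± 0.076, adjusted p = 0.019), as was Nr1h4 (0.23 ± 0.068, adjusted p = 0.015). Both of these calls, and that of Abcc3 (-0.15 ± 0.058, adjusted p = 0.043), were lost in some fits that left out 1 library, 2 of 8 for Fabp6, 2 of 8 for Nr1h4 and 7 of 8 for Abcc3. The Fabp6 call was also lost with the stricter filter (adjusted p = 0.061). That of Abcc3 was also lost with DESeq2 (0.0895), its size factors (0.052), no filter on low counts (0.31), only the groups compared (0.0705) and total-count scaling, where the difference was 0.095 (0.29). Without replicate 1 of the hepatectomy IEC, the difference was 0.14 for Fabp6, 0.20 for Nr1h4 and -0.071 for Abcc3 (log2). The split over all genes was 4780 higher and 4665 lower with TMM, and 7270 and 3073 with total-count scaling.

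Tested directly, the hepatectomy effect differed between crypts and IEC for 3 of the 9 genes, against 19.2% of all genes (1666 higher and 1833 lower in crypts, and 1019 and 2436 with total-count scaling). These were Slc10a2, Fabp6 and Nr1h4, with the values above. For Abcc2 the difference was 0.22 ± 0.078 (adjusted p = 0.068, interval 0.069 to 0.37), so its rise was not shown to differ between the fractions. For Fgf15 it was 1.20 ± 0.43 (adjusted p = 0.069, interval 0.37 to 2.04), which passed in 2 alternatives, without the filter on low counts (adjusted p = 0.026) and without replicate 1 of the sham crypts (0.024).

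Levels per kilobase of exon show the order of the genes within sham IEC. In CPM of all counts per kilobase, Fabp6 was highest at 552 ± 17, followed by Slc51b at 91.9 ± 5.9 and Slc51a at 78.1 ± 0.12. Nr1h4 (18.0 ± 0.31) and Abcc3 (15.1 ± 0.21) came next, then Abcc2 (5.20 ± 0.087), Slc10a2 (2.95 ± 0.47) and Nr0b2 (2.71 ± 0.072), and Fgf15 was lowest at 0.802 ± 0.17 (SD, n = 2 each). The importer and the neighbouring Nr0b2 did not differ beyond their spread. In hepatectomy IEC, Abcc2 stood at 14.5 ± 0.068 and Nr1h4 at 12.3 ± 0.17, and in hepatectomy crypts Slc10a2 at 0.82 ± 0.051 lay beside Nr0b2 at 0.797 ± 0.25.

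Other genes shared the patterns of single members across the 8 intestinal libraries. By Pearson's r on log2 CPM over 9360 genes (9361 for Fgf15) with a mean of at least 5 CPM, Slc10a2 was most like Muc2 (0.987), Npdc1 (0.983) and Rgs2 (0.983). Fabp6 was most like Rbbp8 (0.988), Endod1 (0.978) and Ctc1 (0.975), and Fgf15 most like Hdac4 (0.957), Myo1d (0.953) and Cyb561d1 (0.935). Abcc2 was most like Arg2 (0.999), Nat8f5 (0.998) and Pklr (0.997). Among the 9 genes, Slc51a and Nr0b2 had the highest r, at 0.995, and Fabp6 and Abcc3 the lowest, at -0.85. With 8 libraries in 4 groups these values mostly rank group means and carry no test.

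The libraries labelled liver held the same genes at other levels, and were counted on other gene models and normalised apart, so levels across the tables are set side by side only as CPM of all counts. Fabp6 stood at 223, 196 and 202 CPM at day 0, beside 263 and 284 CPM in sham crypts, whereas Slc10a2 stood at 1.88, 2.07 and 1.94 CPM, beside 13.1 and 13.2 CPM there. There were 94.5 to 119 Fabp6 counts per Slc10a2 count at day 0, beside 20.1 and 21.6 in sham crypts. Neither comparison was tested.

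At day 10 against day 0, 4 of the 9 genes passed, 3 higher and 1 lower, against 43.6% of all genes (4129 rose and 3146 fell; the median of all genes was 0.10 and that of the 9 was 0.57). Replicate 3 of day 10 stood apart for 4 of the other genes. Its Fabp6 level was 270.4 CPM, against 13.1 and 15.6 CPM in the other replicates of day 10 and 200.3, 154 and 155 CPM at day 0. Its Slc10a2 level was 4.34 CPM, against 0.606 and 0.285 CPM in the others and 1.69, 1.63 and 1.49 CPM at day 0. Its Slc51a and Slc51b levels were 78.8 and 13.4 CPM, whereas the other replicates held 17.6 and 17.8 CPM of Slc51a and 2.42 and 1.67 CPM of Slc51b. In that library the distal markers summed to 596 CPM of all counts, against 126 and 155 CPM in the other replicates of the day.

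With all 3 libraries and the standard filter none of these 4 genes passed: Slc10a2 differed by 0.04 ± 0.63, Fabp6 by -0.77 ± 0.81, Slc51a by 0.59 ± 0.46 and Slc51b by -0.24 ± 0.58 (adjusted p = 0.30 to 0.96). Without the filter on low counts Fabp6 passed (-1.13, adjusted p = 0.0425). Without replicate 3, 8 of the 9 genes passed, 3 higher and 5 lower. The log2 fold change was then -1.82 for Slc10a2 (adjusted p = 0.00031), -3.61 for Fabp6 (5.8e-10), -0.55 for Slc51a (0.046) and -1.75 for Slc51b (0.00044). Restricting that fit to day 0 and day 10, a setting chosen after the data were seen, gave 8 genes again, with -1.89, -3.65, -0.59 and -1.79 for the 4 genes. The share of all genes called in either fit is not given here, so these counts of 8 have no background beside them. At day 0 the 3 libraries had lain within 1.49 to 1.69 CPM for Slc10a2 and 154 to 200.3 CPM for Fabp6.

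**Figure D3:**
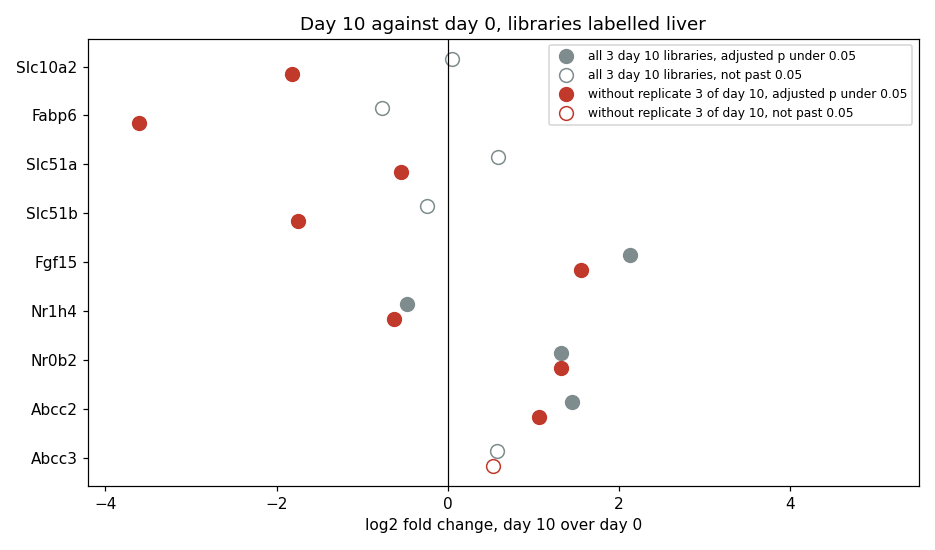
Log2 fold change of each gene at day 10 over day 0 in the libraries labelled liver, with all 3 day 10 libraries and without replicate 3 of day 10; filled points passed an adjusted p of 0.05. Slc10a2, Fabp6, Slc51a and Slc51b lie left of 0 and past the threshold without that replicate, and not past it with it.

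Nr0b2 and Abcc2 were higher at day 10. Nr0b2 stood at 4.51, 3.87 and 3.86 CPM at day 10, against 1.27, 1.74 and 1.90 CPM at day 0, with no overlap (1.32 ± 0.18, adjusted p = 0.00062). Abcc2 stood at 11.9, 10.7 and 20.8 CPM, against 3.92, 5.77 and 6.11 CPM at day 0 (1.45 ± 0.24, adjusted p = 0.0020). Both genes passed in all 17 alternative settings, with total-count scaling included. Fgf15 stood at 1.45, 1.10 and 3.04 CPM, against 0.465, 0.609 and 0.18 CPM at day 0 (2.13 ± 0.64, adjusted p = 0.024). Its call was lost without replicate 1 (adjusted p = 0.067) or 3 (0.079) of day 0, with a replicate block (0.055) and with total-count scaling (0.054). The library with the highest value, replicate 3, also carried the most counts over genes silent in gut: the 1094 olfactory receptor genes averaged 0.997 CPM of all counts there, against 0.353 and 0.404 in the other day 10 libraries and 0.288 to 0.306 at day 0. Without that replicate the Fgf15 change was 1.56 (adjusted p = 0.032).

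Nr1h4 was lower, at 24.9, 19.0 and 27.4 CPM at day 10, against 38.0, 31.1 and 29.8 CPM at day 0 (-0.47 ± 0.16, adjusted p = 0.033), a call lost without replicate 2 of day 10 (adjusted p = 0.099), with a stricter filter (0.16) and with total-count scaling (0.26). Abcc3 stood at 52.2, 53.6 and 53.1 CPM at day 10 and 17.9, 44.5 and 44.4 CPM at day 0, and did not pass (0.57 ± 0.26, adjusted p = 0.093). Genes of liver moved with Nr0b2 and Abcc2, which hepatocytes also express: 7 of 10 hepatocyte markers rose at day 10 and the other 3 did not pass, and 7 of 12 genes of bile acid synthesis and hepatic uptake rose. With total-count scaling none of the 10 and 1 of the 12 passed, with medians of 1.13 and 1.09, while 2542 genes in all rose and 1343 fell. Slc10a1, the hepatocyte importer, stood at 13.03 ± 7.2 CPM at day 10 and 5.73 ± 0.30 CPM at day 0 (1.18 ± 0.30, adjusted p = 0.011; SD, n = 3 each). The part of such RNA in the values of Nr0b2 and Abcc2 was not tested.

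The Slc51 pair lost its fixed ratio at day 10. There were 7.26, 10.7 and 5.90 Slc51a counts per Slc51b count at day 10, against 3.56, 4.26 and 3.47 at day 0. The days did not overlap, although Slc51b rested on 80, 41 and 277 counts at day 10. Day 20 held 0.209, 0.381 and 0.333, from 8 to 14 Slc51a and 21 to 43 Slc51b counts per library.

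The day 20 libraries, which held liver markers, had other genes of the 9 at high levels. Day 0 and day 10 held crypt markers instead, so day of DSS and tissue cannot be told apart in any comparison with day 20. Against day 0, all 9 genes passed, 5 higher and 4 lower, and against day 10 likewise 5 and 4, beside 71.4% and 71.1% of all genes. Abcc2 stood at 274, 288 and 277 CPM at day 20, against 3.92, 5.77 and 6.11 CPM at day 0 (5.73 ± 0.28, adjusted p = 9.5e-10), and Abcc3 at 386, 383 and 389.6 CPM, against 17.9, 44.5 and 44.4 CPM (3.44 ± 0.29). Nr0b2 stood at 134 ± 8.3 CPM at day 20 and 1.64 ± 0.33 CPM at day 0, and Nr1h4 at 153 ± 1.3 CPM at day 20 and 33.0 ± 4.4 CPM at day 0 (SD, n = 3 each). Slc10a2, which bile duct cells also express, stood at 22.6, 25.2 and 22.7 CPM, against 1.69, 1.63 and 1.49 CPM at day 0 (3.87 ± 0.61, adjusted p = 8.0e-05). The 8 bile duct markers summed to 121 to 131 CPM of all counts at day 20, against 4546 to 5101 at day 0, where gut epithelium shares several of them. With TMM, 7 of them were lower at day 20 and 1, Spp1, was higher. Spp1 stood at 93.9 ± 3.7 CPM at day 20 and 0.557 ± 0.039 CPM at day 0 (SD, n = 3 each). The part of bile duct RNA in the Slc10a2 values was not tested.

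Fabp6, Slc51a, Slc51b and Fgf15, unlike Slc10a2, were low or absent at day 20. Fabp6 stood at 1.29, 0.696 and 1.19 CPM, against 200.3, 154 and 155 CPM at day 0 (-7.32 ± 1.13, adjusted p = 6.2e-05), and Slc51a at 0.331, 0.309 and 0.504 CPM, against 31.7, 22.5 and 21.5 CPM (-6.03 ± 0.65). Slc51b stood at 1.30 ± 0.43 CPM, against 6.79 ± 1.9 CPM at day 0 (-2.37 ± 0.64, adjusted p = 0.0049). Fgf15 had 0 counts in all 3 day 20 libraries, against 19, 28 and 7 counts at day 0. Set against a floor of 3 counts per library (0.116 CPM), its level at day 20 was at least 3.60-fold lower than at day 0 and at least 16.1-fold lower than at day 10. Against day 10, the call on Slc51b (-2.13 ± 0.65, adjusted p = 0.0098) was lost without replicate 3 of day 10 (-0.65, adjusted p = 0.090).

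**Figure D4:**
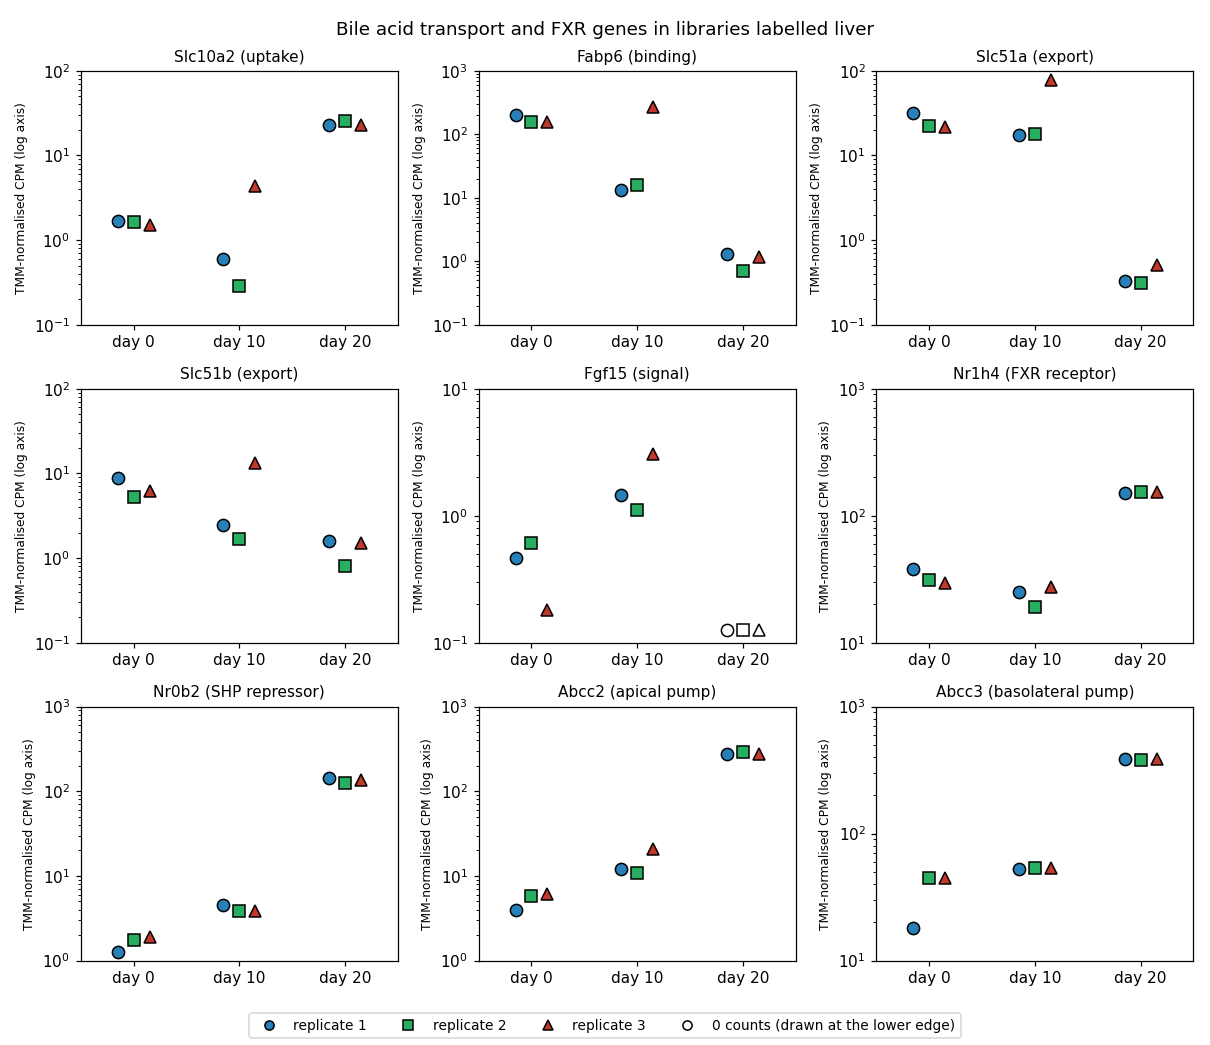
TMM-normalised CPM of each gene in the libraries labelled liver at day 0, day 10 and day 20, on log axes, 1 symbol per library and replicate; open symbols at the lower edge are 0 counts. Replicate 3 of day 10 lies above the other 2 for Slc10a2, Fabp6, Slc51a and Slc51b, and day 20 is highest for Nr1h4, Nr0b2, Abcc2, Abcc3 and Slc10a2.

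Genes of liver bile acid handling were high at day 20. All 12 genes of bile acid synthesis and hepatic uptake were higher than at day 0 (median 7.66, beside -0.16 over all genes). So were 9 of 10 liver FXR targets, a list that holds Nr0b2 itself (8 of 9 without it, and 7 of 9 with total-count scaling). Slc27a5, which conjugates bile acids, stood at 1683 ± 40 CPM at day 20 and 8.14 ± 0.39 CPM at day 0, and Cyp7b1, of the alternative synthesis pathway, at 349 ± 23 CPM at day 20 and 1.58 ± 0.59 CPM at day 0 (SD, n = 3 each). With total-count scaling the 9 genes passed in the same directions. Over all genes 3198 were then higher and 9299 lower than at day 0, beside 5558 and 6356 with TMM. Against day 10 the splits were 2410 and 10230, beside 5150 and 6720.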

How the data were processed

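RNA was prepared with RNeasy mini plus kits and sequenced on Illumina instruments, per the labels' protocols. For the 8 intestinal libraries the authors deposited expected counts per gene symbol, of which 36.7% were not whole; they were rounded here. For the 9 libraries labelled liver the authors deposited whole counts per gene identifier. STAR, Partek and mm10 are named per the submitters' processing notes, without versions. The counting program and the strand used are not given in the sources used here. In the tables labelled liver, 24 identifiers had no match in the gene name table, held 3.93 to 22.1% of a library's counts and stayed in the totals.

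Each kind of table was fitted apart with edgeR 4.0.16 in R 4.3.3, with TMM factors, genes kept by filterByExpr (minimum count 10, minimum total 15), the quasi-likelihood test and Benjamini-Hochberg adjustment over all genes. The fit covered all groups of a table. Alternatives were DESeq2 1.42.0, its size factors in edgeR, all genes kept, fewer genes kept (the stricter filter, a group with all libraries at 1 CPM or more, and an overall mean of 5 CPM or more), a replicate block, only the groups compared, and each library left out. Total counts without TMM factors, and day 0 and day 10 without replicate 3 of day 10, were added after seeing the data. The code was tested on simulated data.

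The 9 genes and the other gene lists were chosen with earlier results of these data known. All 9 genes are named in each comparison; of each other list, at most 3 called genes with the smallest p are named (at most 2 between fractions or days), and for 4 of the genes the 3 most alike by Pearson's r. Promoters are RefSeq windows of 250 bases before to 50 after the start. A further motif is not reported here. Intervals cover the spread between libraries, and floors cover counting error only.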

Additional observations from a re-analysis of the deposited data

Results flagged for a closer look

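The effect of hepatectomy differed between crypts and IEC, by a test of the difference itself with edgeR's quasi-likelihood test, for 3 of the 9 genes. For Slc10a2 the difference was -1.58 (log2, crypts minus IEC), and for Fabp6 it was 0.54. For Nr1h4 it was 0.32, and this call did not outlast a change of tool, of scaling or the loss of single libraries. No explanation was weighed.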

How the results depend on the processing

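Of 1090 values of the 9 genes under alternative settings, 994 kept their direction and their side of the threshold, 50 lost the call, 10 gained it and 36 changed sign; of 246 counts of calls, 239 stayed within 1.5 times. The cause of the changes was not tested. With total-count scaling, the changes of sign in hepatectomy against sham were, in crypts, Slc51b -0.054, Fgf15 -0.064 and Abcc3 -0.11, and in IEC, Slc51a -0.024 and Slc51b -0.080. In crypts against IEC they were, in sham, Slc10a2 0.10, Fabp6 0.050, Nr1h4 0.26 and Abcc3 0.25, and after hepatectomy Abcc3 0.10. At day 10 against day 0, Slc51b was 0.060 on that scale, with 2 of the 9 genes and 3885 genes in all called.

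Nr1h4 in crypts after hepatectomy was -0.34 with total-count scaling, where it passed, and near 0 in other settings, at 0.0055 with DESeq2, 0.0058 with its size factors, 0.0024 with the stricter filter and 0.00049 with only the groups compared, and -0.11 to 0.070 with 1 library left out. Slc10a2 in IEC was 0.024 with the stricter filter and -0.21 to 0.12 with 1 library left out. Leaving out 1 library also gave -0.13 to 0.71 for Fgf15 in crypts, -0.048 to 0.25 for Fgf15 in hepatectomy crypts against IEC (where 5 to 8 of the 9 genes passed), and, for the difference between fractions, -0.027 to 0.65 for Nr0b2 and -0.12 to 0.037 for Abcc3.

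At day 10 against day 0, Slc10a2 was -0.24 with no filter, -0.26 with the replicate block, -0.0078 with only the groups compared and -1.82 to 0.52 with 1 library left out. Slc51a ranged from -0.55 to 0.90 and Slc51b from -1.75 to 0.16 with 1 library left out, and 3 to 8 of the 9 genes passed. With day 0 and day 10 only and no replicate 3 of day 10, 8 passed, with -1.89 for Slc10a2 and -0.59 for Slc51a. For these fits no share of all genes called is given beside the counts. The stricter filter left 2 of the 9 genes and 4423 genes in all.

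Pairing by replicate number was checked. Deviations of same-numbered libraries correlated at -0.02 to 0.03 in the intestine and -0.03 to 0.04 in the tables labelled liver. A library correlated best with its own number in 16 of 24 cases in the intestine and 10 of 18 in the tables labelled liver. With 2 libraries per intestinal group, the deviations of replicates 1 and 2 mirror each other. The 24 cases are therefore not independent, and whether libraries were paired is not settled. With the replicate block, 7 of the 9 genes passed in crypts, 7 in IEC, 3 for the difference between fractions, 6 and 8 in crypts against IEC (sham and hepatectomy), 3 at day 10 and 9 in both day 20 comparisons. The shares of all genes called with the block are not given here, so these counts have no background beside them. With 2 or 3 libraries per group, genes at few counts (Fgf15 everywhere, Nr0b2 in crypts) are limited by depth.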
